A study of Homo sapiens with 45 samples.

Results

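Translation initiation and elongation factors are the proteins that load ribosomes onto messenger RNA and move them along it. The 33 genes described here were chosen by name, and all 33 had a row among the 23045 genes of the deposited tables. They comprise 5 elongation factor genes, 12 genes for subunits of eIF3, 8 genes of the eIF4 group (counting PABPC1, the poly(A)-binding protein) and 8 genes for the eIF1, eIF2 and eIF5 factors. Their transcripts were followed across 45 single cells in 4 groups.

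Every cell came from passage 40 of H1, an established line of human embryonic stem cells, kept on Matrigel in mTESR1 medium. The series compared live cells (DAPI-) with fixed cells (DAPI+). Each state was prepared either by FRISCR, a method built to obtain RNA from single cells after fixation, or by lysis with Triton X-100, a detergent. These preparation names follow the sample group labels. The sample titles instead read PLRC for the FRISCR cells and RLT for the Triton cells, so the labels name the Triton lysis differently. There were 15 live FRISCR cells, 12 fixed FRISCR cells, 11 live Triton cells and 7 fixed Triton cells, and cDNA was made by Smart-seq2, which copies polyadenylated RNA into full-length cDNA, before Nextera XT tagging. No label tells of separate cultures. A group therefore counts as 1 sample of 1 cell line, its cells are not replicates of a condition, and no p-value was computed. The fixative used on the H1 cells is not given in the sources used here, and the labels' extraction text describes cortical tissue.

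Initiation begins when eIF2 brings the initiator tRNA to the small ribosomal subunit, on which eIF1, eIF1A, eIF3 and eIF5 assemble. The eIF4 factors bind the cap (eIF4E), bridge it to eIF3 and to the poly(A)-binding protein (eIF4G) and unwind the leader (the helicase eIF4A, with eIF4B and eIF4H), and eIF5B joins the large subunit. In elongation, eEF1A delivers charged tRNAs, the eEF1B complex (the products of EEF1B2, EEF1D and EEF1G) recharges eEF1A with GTP, eEF2 moves the ribosome by 1 codon and eIF5A, despite its name, acts mainly at stalled ribosomes. Many of these mRNAs belong to the 5′ TOP class, whose transcripts begin with a C followed by an unbroken run of C and T (U in the RNA) and whose translation follows nutrient signals through mTOR.

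The transcript starts are shown because they separate the factor genes into 2 kinds that the choice of members did not use. RefSeq start windows (build GRCh38.p14), matched by symbol, were used for 25 of the 33 genes. None of these windows lies on the chromosome that holds EEF1D, EIF3E, EIF3H and PABPC1. Those genes are on the list of established TOP mRNAs used below, and whether their starts hold a run was not examined. The counts of runs given here therefore do not cover them. In 10 of the 25, the first transcribed base was a C followed directly by at least 4 more C or T, a run of at least 5 bases, searched only on the strand whose letters match the RNA. The same held for 5.14% of the 27305 genes with a window. Each line gives 15 bases before and 15 bases from the start, with the run in capitals.
EEF1A1: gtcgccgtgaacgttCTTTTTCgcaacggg
EEF2: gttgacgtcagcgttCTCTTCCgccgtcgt
EEF1B2: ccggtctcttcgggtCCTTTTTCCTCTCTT
EIF3D: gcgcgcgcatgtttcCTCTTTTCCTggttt
EIF3F: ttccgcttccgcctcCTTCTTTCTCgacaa
EIF3K: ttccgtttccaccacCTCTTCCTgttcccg
EIF3M: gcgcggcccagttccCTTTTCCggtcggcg
EIF4A2: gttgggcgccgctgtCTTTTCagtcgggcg
EIF4B: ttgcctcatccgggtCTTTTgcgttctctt
EIF2S3: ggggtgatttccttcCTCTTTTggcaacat
EEF1G: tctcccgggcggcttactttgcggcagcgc
EIF4A1: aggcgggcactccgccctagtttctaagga
The 10 genes with a run include 3 of the elongation factors, 4 eIF3 subunits, 2 eIF4 genes and 1 eIF2 subunit. The last 2 lines show abundant members whose listed start holds no such run. EEF1A1 lies at chr6:73521018-73521047 on the minus strand, EEF2 at chr19:3985449-3985478 (minus), EIF3D at chr22:36529152-36529181 (minus), EIF3K at chr19:38619173-38619202 (plus) and EIF4A2 at chr3:186783562-186783591 (plus), each window reaching from the promoter into the first exon. A match describes letters in a window, and no match says only that these letters are not at the listed start. EEF1B2 has a second listed start without a run.

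Total counts per cell ranged from 3388417 to 6594043. The cells of each group fall into 2 library sets, read from a code in the titles, with 23 and 22 cells. The row named TVAS5 held a median of 26.3% of the counts of a fixed Triton cell and 6.90% for live Triton cells. For FRISCR it held 0.826% when live and 0.773% when fixed. What that row takes is missing from the CPM (counts scaled to a total of 1000000) of all other genes. All 7 embryonic stem cell markers reached 10 CPM in the 3 other groups and 6 of 7 did so in fixed Triton cells, where their summed level was 684 to 1770 CPM per cell, against 2635 to 5520 in the other cells. Of the endoderm markers SOX17, FOXA2 and GATA6 were at 0 in every group, and the fourth, AFP, passed 10 CPM in fixed Triton cells, with a sum of at most 125 CPM in a cell. Of 4 mesoderm markers 1 passed 10 CPM in every group but fixed Triton, with a sum of up to 270 CPM in a live FRISCR cell, and no neural marker did. The fibroblast markers COL3A1, DCN and LUM were at 0 throughout, while COL1A1 and COL1A2 gave a fibroblast sum of 0 to 528 CPM per cell. The part of the TVAS5 row and of the marker levels in the results below was not tested.

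In live cells the factor mRNAs were abundant and present in every cell. Together they took a median of 2.87% of a live FRISCR cell's counts, with a lowest cell at 2.31% and a highest at 3.33%. Fixed FRISCR cells ranged from 2.59% to 2.91% with a median of 2.73%, and live Triton cells ranged from 1.84% to 2.80% with a median of 2.39%. Fixed Triton cells lay between 1.22% and 1.63%, with a median of 1.33%, below every cell of the other groups. With the TVAS5 row and 44 rows named for rRNA taken out of the total, the fixed Triton median was 2.05%, and its range, 1.86% to 2.37%, then overlapped that of the live Triton cells, 2.13% to 3.07%.

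The lower share in fixed Triton cells was not spread evenly over the roles. For the eIF4 genes the median share went from 0.770% when live to 0.229% when fixed, and for the eIF3 genes from 0.384% to 0.180%. In both role groups the highest fixed Triton cell lay below the lowest live Triton cell. Without the TVAS5 and rRNA rows this still held for eIF4, while the eIF3 ranges overlapped, at 0.333% to 0.481% live and 0.228% to 0.374% fixed. The eIF1, eIF2 and eIF5 genes had 0.339% live and 0.321% fixed, and these ranges overlapped. Without those rows the order of their medians turned, to 0.356% live and 0.496% fixed. The elongation factor genes had 0.574% in fixed and 0.795% in live Triton cells, where set 1 cells were lower (median 0.710%) than set 2 cells (1.10%). Under FRISCR the ranges of live and fixed cells overlapped in all 4 roles, though barely for the eIF1, eIF2 and eIF5 genes, at 0.226% to 0.329% in live cells and 0.326% to 0.473% in fixed cells.

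**Figure D1:**
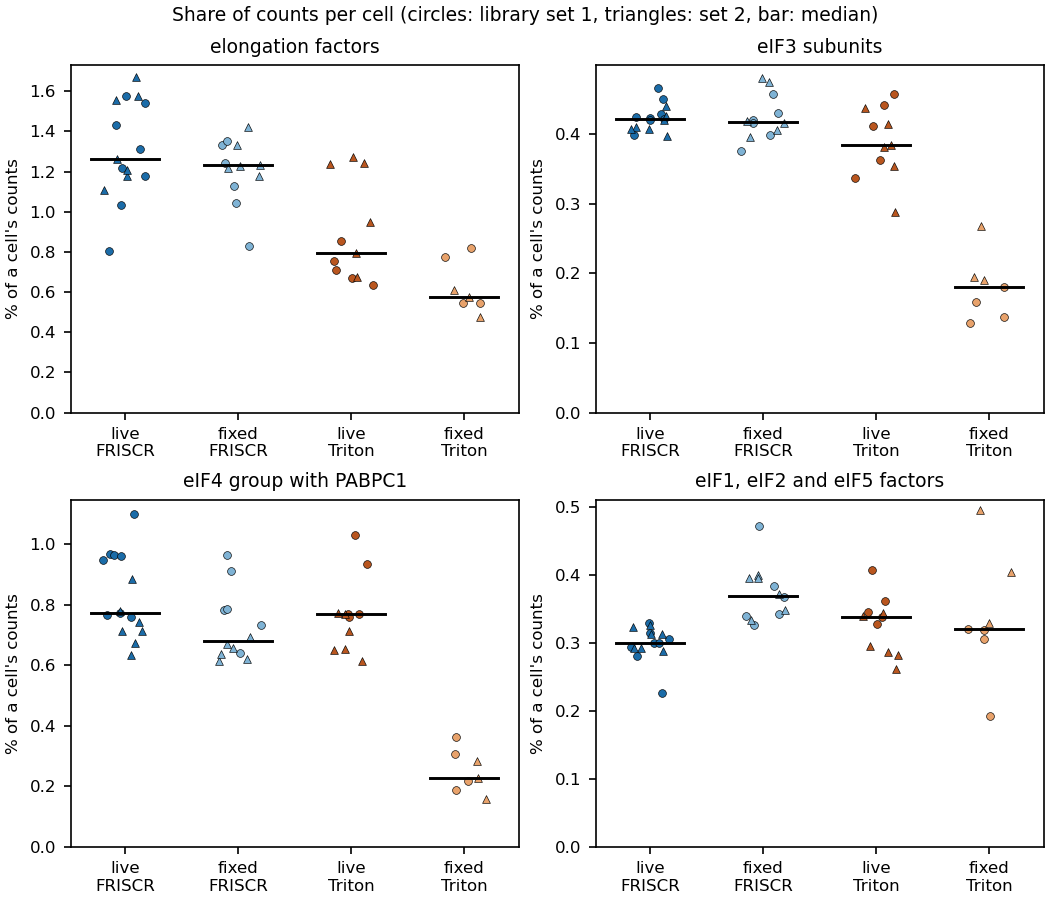
Percent of each cell's counts taken by the genes of each role (y axis, from 0) in the 4 groups, 1 point per cell, with circles for library set 1, triangles for set 2 and a bar at the median. The 7 fixed Triton cells sit apart for the eIF4 genes (median 0.229%) and the eIF3 genes (0.180%) and overlap the other cells for the eIF1, eIF2 and eIF5 genes (0.321%).

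Per unit of transcript length (TPM, the authors' values), 4 genes headed the order in live FRISCR, fixed FRISCR and live Triton cells alike: EEF1A1, then EIF4A1, then EEF1G, then EIF5A. In live FRISCR cells the median TPM was 4466 for EEF1A1 (lowest cell 3017, highest 6414), 2561 for EIF4A1 (2110 to 4070), 1938 for EEF1G (1389 to 2617) and 1229 for EIF5A (576 to 1440). Neighbours in this order overlapped in range, so it describes medians. PABPC1 followed in live FRISCR cells with a median of 845 TPM and EIF1 stood 7th with 682. The bottom of the order was held by EIF5B at 55.1 TPM, EIF3B at 68.0 and EIF2S1 at 77.6.

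The order differed in fixed Triton cells. There EIF5A (median 1342 TPM), EEF1A1 (1333) and EEF1G (1228) came close together at the top, EEF1B2 was 4th with 433 and EIF3F, 18th in live FRISCR cells, was 5th with 385. EIF4A1, second elsewhere, was 6th with 339 TPM. EIF3A (0.360) and EIF3D (0.430) held the bottom.

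All 33 genes had at least 1 count in every cell of live FRISCR, fixed FRISCR and live Triton, both in full and after each cell was thinned to 1000000 counts. In fixed Triton cells 19 of 33 did so in each of the 7 cells after thinning (25 without thinning), and a cell held 29 to 32 of them with a median of 30. Among all genes at 100 CPM or more in that group, 57.0% had a count in every thinned cell, against 92.4% to 97.8% in the other groups. In full counts, each fixed Triton cell lacked 1 or 2 of the factors, and EIF3A, missing from 2 cells, was the only gene missing from more than 1. The spread from cell to cell was wider there too: the median coefficient of variation of CPM over the 33 genes was 0.31 for live FRISCR, 0.30 for fixed FRISCR, 0.30 for live Triton and 0.98 for fixed Triton cells, beside 0.42, 0.44, 0.38 and 0.86 over all genes at 100 CPM or more. Over all genes at 20 CPM or more it was, in the same order, 0.72, 0.76, 0.63 and 1.50. Some factors were under 100 CPM in fixed Triton cells, such as EIF3A at 21.8 by sum.

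EEF1A1, which encodes the abundant tRNA carrier eEF1A, supplied a large part of the factor counts in each group, with medians of 33.9% (live) and 34.2% (fixed) under FRISCR and of 26.7% (live) and 29.7% (fixed) under Triton. Its level per cell (lowest, median and highest) was 5985, 9211 and 13247 CPM for live FRISCR and 6337, 9100 and 10769 CPM for fixed FRISCR. Under Triton it was 4246, 5759 and 9684 CPM when live and 3113, 3793 and 4838 CPM when fixed. The fixed Triton cells were the lowest and overlapped only live Triton cells. EEF1A1 has many processed pseudogenes, between which reads can be split, so its level is uncertain to that extent.

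EEF1G, which encodes the gamma subunit of the exchange complex, was among the abundant factors whose CPM differed little between the groups by total counts. It was at 1211, 1735 and 2071 CPM in live FRISCR cells and 1256, 1719 and 2319 in fixed FRISCR cells. In live Triton cells it was at 1046, 1450 and 2016 CPM and in fixed Triton cells at 953, 1595 and 2171. All 4 ranges overlapped.

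**Figure D2:**
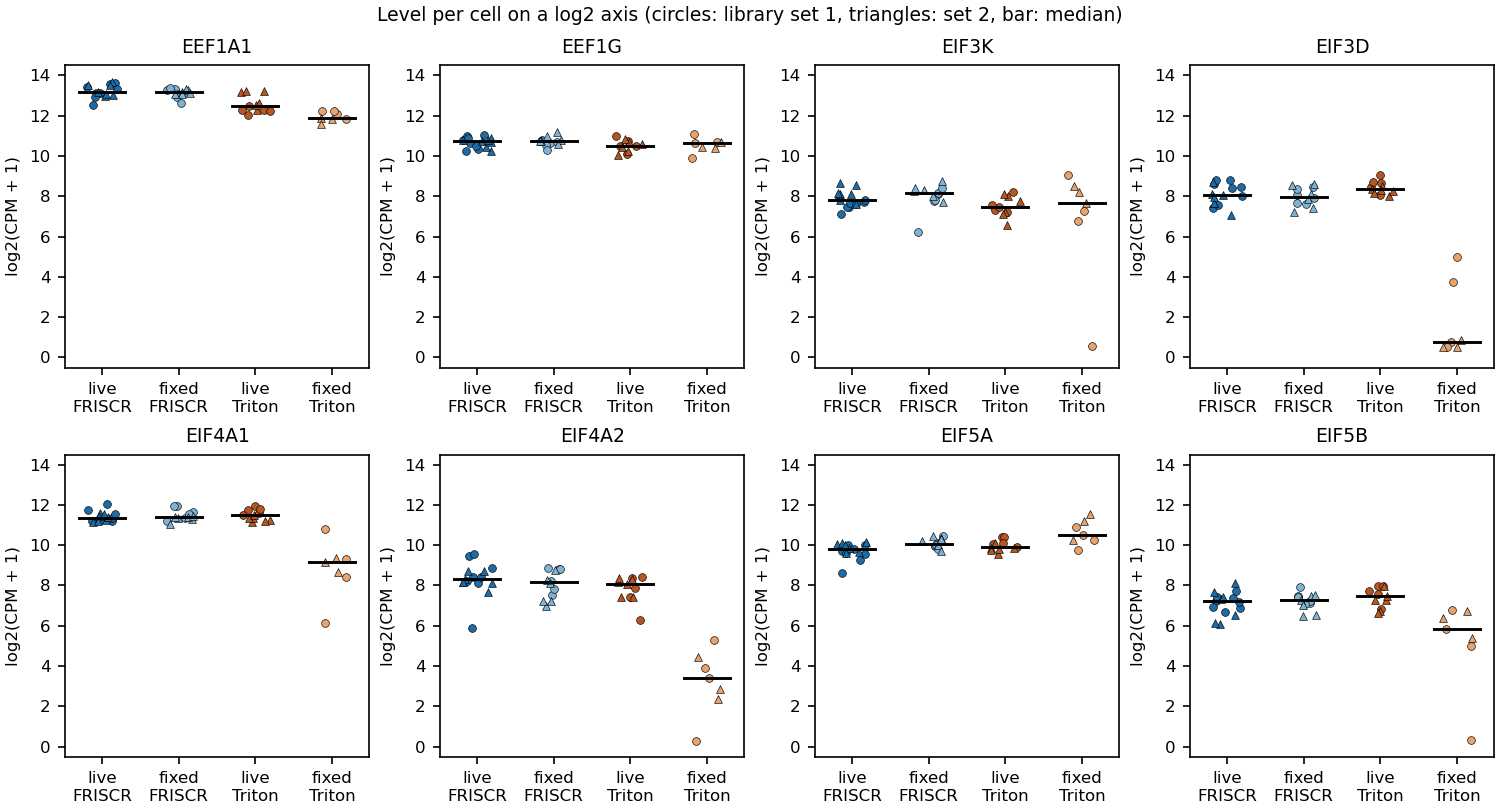
CPM per cell on a log2(CPM + 1) axis for 2 genes of each role in the 4 groups, with circles for library set 1, triangles for set 2 and a bar at the median. EEF1G and EIF5A overlap in all groups, while every fixed Triton cell is below every live Triton cell for EIF3D, EIF4A1 and EIF4A2.

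Fixation was first compared within FRISCR. For each gene the counts of a group's cells were added up and expressed as CPM of their total, and ratios of these pooled values are given on the log2 scale. The intervals quoted for ratios cover counting error only, and reads that carry no molecular identifier cannot be taken as separate molecules. All 33 factor genes stayed within 2-fold, while 3.34% of 7518 genes at 20 CPM or more were over 2-fold higher in fixed cells and 7.69% over 2-fold lower. The median over the 33 was 0.11 (set 1: 0.08, set 2: 0.10), beside -0.02 for all genes. Of the 33, 20 were higher and 13 lower in fixed cells, and by mean TPM, where the all-gene median was -0.14, 16 were higher and 17 lower. In no gene tested did every fixed cell lie above, or below, every live cell (0%).

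Within that narrow range the roles lay on different sides of the all-gene median. All 8 eIF1, eIF2 and eIF5 genes were above 0 (7 of 8 by mean TPM), with a median of 0.32, and 6 of them were higher in both library sets. EIF5B, at 0.0048, turned below 0 when any of 12 cells was left out. The eIF3 median was 0.20, with 8 of 12 subunits higher. The eIF4 median was -0.28, with 6 of 8 lower in both sets, and the elongation factor median was -0.11. In all, 15 of the 33 factors were higher in both sets, beside 28.1% of genes tested, and 12 were lower in both, beside 30% of genes tested.

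The ends of the range were EIF1AX, for the scanning factor eIF1A, and EIF4G1, for the scaffold that holds the cap complex together. EIF1AX was at 91.4, 247 and 379 CPM in live and 158, 359 and 659 CPM in fixed FRISCR cells, and 5 of 12 fixed cells exceeded the highest live cell. Its log2 ratio was 0.55 (0.57 and 0.53 in the sets), or 1.47-fold with a counting interval of 1.44 to 1.50. EIF4G1 was at 97.5, 324 and 574 CPM in live and 15.4, 213 and 331 CPM in fixed FRISCR cells, with a log2 ratio of -0.76 (-0.88 and -0.66 in the sets). One fixed cell lay below the lowest live cell, and the groups otherwise overlapped.

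Other members at the low end were EIF3A (-0.70), for the large eIF3 scaffold subunit, EIF4G2 (-0.62), for an eIF4G relative that lacks the cap-binding contact, EEF2 (-0.55) and EIF3C (-0.48). EIF5A (0.37), EIF2S1 (0.47) and EIF2S2 (0.40) were at the high end, but the last 2 leaned on 1 set each: EIF2S1 was 0.11 and 0.99 in sets 1 and 2, and EIF2S2 was 0.77 and -0.04. Apart from EIF5A, these members were picked out after their values were seen, and EIF1AX and EIF4G1 were named by a rule that uses the same fixed FRISCR cells.

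The low members under FRISCR tended to be long. Length was read from the authors' own tables, as the ratio of counts to TPM in the same cell, relative to EIF3K, the shortest. The Spearman correlation of length with the log2 ratio was -0.36 over the 33 genes (-0.42 in set 1 and -0.26 in set 2) and -0.25 over all 7518 genes. These are descriptions across genes, which share the same cells and are not independent. The 11 shortest factors had a median log2 ratio of 0.24, the middle 11 of -0.15 and the longest 11 of 0.00. The long eIF1, eIF2 and eIF5 genes kept the last value up: EIF1AX and EIF5 are among the longest and were higher in fixed cells.

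**Figure D3:**
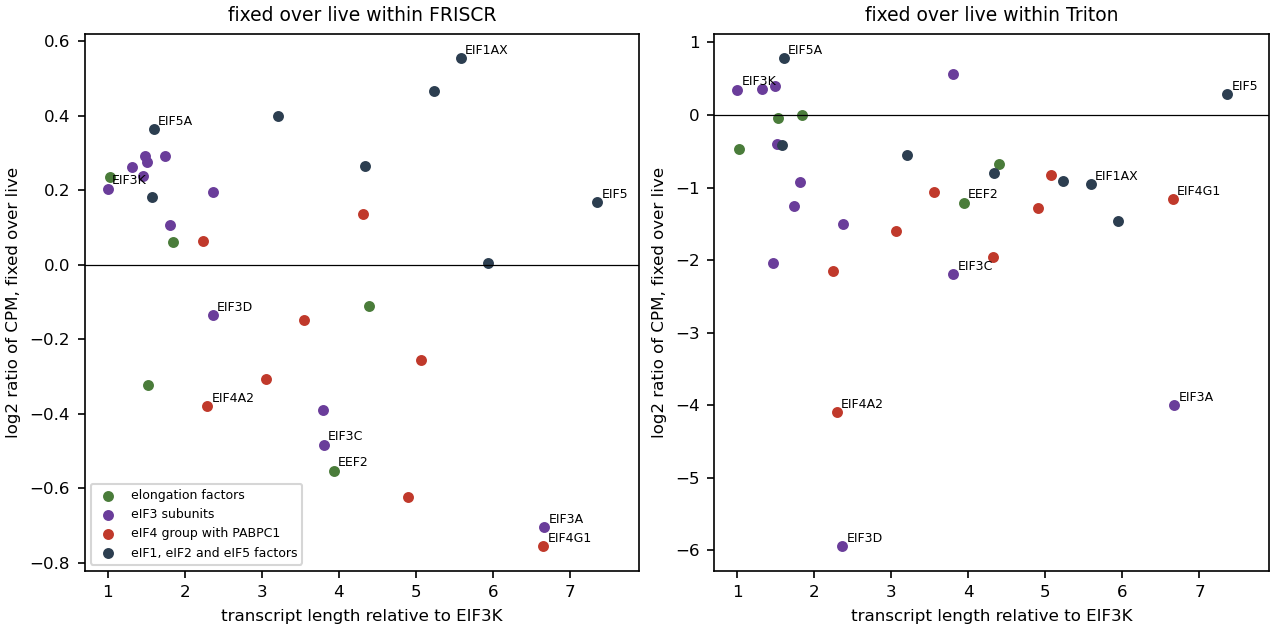
Log2 ratio of CPM, fixed over live, against transcript length relative to EIF3K for the 33 genes, under FRISCR (left) and Triton (right, with a wider y axis), coloured by role. Under FRISCR the points run from 0.55 for EIF1AX to -0.76 for EIF4G1, and under Triton EIF3D, EIF4A2 and EIF3A stand far below the rest.

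Under Triton lysis the same comparison spread the factor genes over a range from -5.95 to 0.78. Of the 33 genes, 15 were over 2-fold lower in fixed cells, beside 58.5% of 7256 genes tested, and 0 over 2-fold higher, beside 12.4%. The median over the 33 was -0.93 (set 1: -0.81, set 2: -0.97) and that of all genes -1.50 (-2.09 and -2.07). By role, the elongation factor median was -0.46, the eIF1, eIF2 and eIF5 median -0.68, the eIF3 median -1.09 and the eIF4 median -1.45, the last closest to that of all genes. Both library sets placed 9 of the 33 over 2-fold lower, beside 46.8% of genes tested.

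These directions depend on the scaling, since the all-gene median itself moves. By total counts it is -1.50, with the trimmed mean of M-values (TMM) -0.48, with median-of-ratios -0.30 and from mean TPM -1.86. Under TMM the median of the 33 was 0.09, with 7 genes over 2-fold higher and 6 lower, under median-of-ratios it was 0.27, with 8 and 3, and under mean TPM -1.50, with 0 and 23. The eIF4 median was below 0 under each (-0.43, -0.25 and -2.01), while the elongation factor median was 0.55, 0.73 and -1.02. EIF3A, EIF3D and EIF4A2 were over 2-fold lower under all 4 scalings. The share of all genes past 2-fold was counted by total counts only, so the member counts under the other scalings have none beside them.

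By total counts all 8 genes of the eIF4 group were lower in fixed Triton cells, 7 of them over 2-fold, and EIF4B, for a helper of the helicase, was at -0.83. Under TMM 2 of the 8 passed 2-fold, EIF4A1 and EIF4A2, and under median-of-ratios EIF4A2 alone. Leaving out fixed Triton cell 2 put EIF4G1 at -0.90, and leaving out fixed Triton cells 1, 4 or 5 or live Triton cell 5 put PABPC1 at -0.88, -0.92, -0.98 or -0.98, inside 2-fold. EIF4B crossed the other way, to -1.02, -1.32 or -1.07 without fixed Triton cells 1, 4 or 6. Cell numbers are names given in accession order.

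EIF4A1 and EIF4A2 encode closely similar forms of the eIF4A helicase. EIF4A1 was at 2252, 2640 and 4165 CPM in live FRISCR cells and 2130, 2731 and 3919 CPM in fixed FRISCR cells. In live Triton cells it was at 2261, 2847 and 3933 CPM, and in fixed Triton cells at 70.0, 564 and 1766 CPM. No fixed Triton cell reached the lowest cell of any other group, and the summed level was 4.43-fold lower than in live Triton cells (interval 4.37 to 4.50), or -2.15 on the log2 scale, with -2.17 and -2.23 in the sets. As each cell was left out, this log2 ratio ranged from -2.73 to -1.94, wider than the counting interval.

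EIF4A2 was at 59.1, 318 and 749 CPM in live FRISCR, 126, 287 and 464 CPM in fixed FRISCR and 76.2, 267 and 344 CPM in live Triton cells. In fixed Triton cells it was at 0.232, 9.74 and 38.8 CPM, again below every other cell. Its log2 ratio was -4.09, or 17.1-fold lower (interval 15.5 to 18.9), and 26.1-fold lower without fixed Triton cell 2. The share of EIF4A1 in the counts of both forms had medians of 89.4% and 91.2% in live and fixed FRISCR cells, 92.3% in live Triton cells and 98.5% in fixed Triton cells, where the lowest cell was at 95.2% against 88.2% in live Triton cells. The ranges overlapped, since the highest live Triton cell was at 97.9%.

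EIF4G1 and PABPC1 were nearer to the middle of the group. EIF4G1 was at 162, 264 and 445 CPM in live Triton and 0.420, 108 and 248 CPM in fixed Triton cells, a log2 ratio of -1.16. PABPC1 was at 803, 1196 and 2082 CPM in live Triton and 126, 516 and 1314 CPM in fixed Triton cells, and its ratio was -1.07, with -2.15 and -0.11 in the sets. It was at 991, 1472 and 2445 CPM in live FRISCR and 853, 1312 and 1829 CPM in fixed FRISCR cells. Both genes overlapped between live and fixed Triton cells.

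The products of the eIF3 genes enter 1 complex, but in fixed Triton cells their mRNAs lay far apart. In live FRISCR cells the highest of the 12 median TPM values, EIF3E, was 9.72 times the lowest, EIF3B. The ratio of highest to lowest was 14.2 in fixed FRISCR and 10.9 in live Triton cells, and 1069 in fixed Triton cells, from EIF3F at 385 to EIF3A at 0.360. For the 8 eIF4 genes it was 25.2 (live) and 36.8 (fixed) with FRISCR, and 32.6 (live) and 54.6 (fixed) with Triton. For the 8 eIF1, eIF2 and eIF5 genes it was 22.3 in live and 349 in fixed Triton cells. These ratios rest on low values: leaving out each fixed Triton cell put that of eIF3 at 785 to 2011, that of eIF4 at 37.8 to 72.8 and that of eIF1, eIF2 and eIF5 at 130 to 784. In a fixed Triton cell between 1 and 5 of the 12 subunits, with a median of 4, lay more than 10-fold under that cell's median subunit. In the other groups the number was at most 2.

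**Figure D4:**
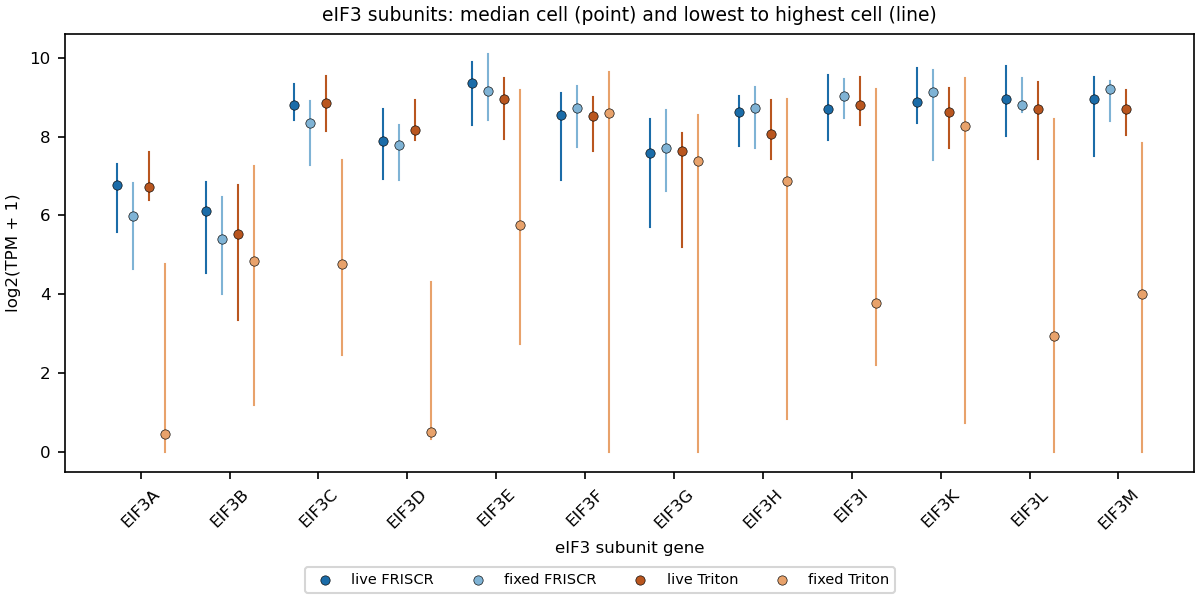
TPM of the 12 eIF3 subunit genes on a log2(TPM + 1) axis, with a point at the median cell and a line from the lowest to the highest cell of each group. EIF3A and EIF3D have medians of 0.360 and 0.430 TPM in fixed Triton cells, while the median of EIF3F there, 385, is close to its 365 in live Triton cells.

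EIF3D, for the subunit that can itself bind the cap of some mRNAs, was the furthest of the 33 genes. It was at 134, 262 and 447 CPM in live FRISCR, 149, 253 and 386 CPM in fixed FRISCR and 260, 323 and 536 CPM in live Triton cells. In fixed Triton cells it was at 0.420, 0.697 and 30.4 CPM, and 164 counts in all stood behind its sum. The groups do not overlap. The log2 ratio was -5.95, or 61.7-fold lower (interval 52.9 to 72.3), and 146-fold lower without fixed Triton cell 3, which held most of those counts.

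EIF3A and EIF3C were the other subunits with every fixed Triton cell below every live Triton cell. EIF3A was 16.0-fold lower by sum (interval 14.8 to 17.3), and 66.6-fold lower without fixed Triton cell 1. EIF3C was 4.58-fold lower (4.45 to 4.71), but EIF3CL, a near-identical copy to which its reads can be assigned, was at 49.9 CPM in fixed Triton cells against 3.94 in live Triton cells, so EIF3C is uncertain. With EIF4A1 and EIF4A2 these made 5 of 33 genes with no overlap in this direction, beside 10.3% of genes tested. These 5 are named after their values were seen.

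In 4 subunits the pooled level was higher in fixed than in live Triton cells: EIF3B (0.56), EIF3F (0.40), EIF3G (0.36) and EIF3K (0.35). They were over 2-fold higher under TMM and median-of-ratios, and lower under mean TPM. EIF3K, for a small peripheral subunit, was at 93.9, 173 and 294 CPM in live Triton and 0.465, 200 and 522 CPM in fixed Triton cells, and at -0.01 without fixed Triton cell 2. It was at 137, 222 and 398 CPM in live FRISCR and 75.0, 281 and 434 CPM in fixed FRISCR cells. The ranges overlapped throughout. EIF3K was the only subunit higher in both sets: EIF3B was at -1.47 and 1.86 in sets 1 and 2, EIF3F at -0.81 and 1.31, and EIF3G at -0.0054 and 0.73.

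EIF3E and EIF3L, the subunits with the highest median TPM over the pooled live cells of both preparations, were uneven in fixed Triton cells. With FRISCR, EIF3E was at 280, 550 and 762 CPM when live and 316, 533 and 983 CPM when fixed. With Triton it was at 201, 428 and 595 CPM when live and 6.71, 69.5 and 722 CPM when fixed, so its fixed Triton cells reached from far below every other cell into the range of live cells. Its log2 ratio under Triton was -0.93, and -1.67 without fixed Triton cell 1, the highest. EIF3L was at 284, 554 and 900 CPM (live) and 472, 523 and 879 CPM (fixed) with FRISCR. With Triton it was at 186, 461 and 766 CPM (live) and 0, 10.7 and 594 CPM (fixed), and here too the Triton ranges overlapped. Its ratio was -1.50 and differed between the sets, at -0.52 and -6.78, and was -2.53 without fixed Triton cell 2.

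Single cells carried much of the summed level of other members in fixed Triton cells. Without cell 1, EIF3H was at -1.22 in place of -0.39, EIF4E at -2.69 in place of -1.96 and EIF4H at -2.50 in place of -1.61. Without cell 2, EEF2 was at -1.82 in place of -1.21 and EIF2S1 at -1.86 in place of -0.90. EIF3M was at -3.10 without cell 6 (-2.04 with it) and EIF3I at -2.54 without cell 7 (-1.25 with it). The number of factors over 2-fold lower ranged from 14 to 17 as each cell was left out.

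By total counts the elongation factors were nearer to their live level under Triton. EEF1G had a log2 ratio of 0.00 (-0.01 in both sets) and EEF1A1 of -0.68 (-0.19 and -1.12). EEF2, for the translocase, was the only elongation factor over 2-fold lower, at -1.21, with 0.30 in set 1 and -3.24 in set 2. These levels move with the scaling. EEF1G was at 1.02 under TMM, 1.20 under median-of-ratios and -0.51 by mean TPM, and EEF1A1 at 0.34, 0.52 and -1.20. EEF1D passed 2-fold under median-of-ratios (1.16) and EEF1B2 by mean TPM (-1.02).

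Among the eIF1, eIF2 and eIF5 genes, EIF5A was the highest of all 33. It was at 761, 950 and 1339 CPM in live Triton and 863, 1447 and 2997 CPM in fixed Triton cells, and 4 of 7 fixed cells exceeded the highest live cell. Its log2 ratio was 0.78 (0.27 and 1.29 in the sets), or 1.72-fold (interval 1.70 to 1.74), above 0 under TMM and median-of-ratios too. Under FRISCR it was at 388, 887 and 1130 CPM in live and 840, 1062 and 1423 CPM in fixed cells, and the ranges overlapped in both preparations. EIF5AL1, a near-identical copy, was at 8.99 CPM or less in every group.

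EIF5B and EIF1AX lay lower and EIF1 between. EIF5B was at 99.7, 175 and 253 CPM in live Triton and 0.250, 55.8 and 110 CPM in fixed Triton cells, a log2 ratio of -1.46, and at 66.5, 148 and 275 CPM in live and 88.2, 152 and 241 CPM in fixed FRISCR cells. EIF1AX was at 79.2, 188 and 308 CPM in live Triton and 0.232, 104 and 363 CPM in fixed Triton cells, a ratio of -0.95, and -1.75 without fixed Triton cell 7. EIF1, which guards start codon choice, was at 268, 463 and 661 CPM in live Triton and 186, 342 and 660 CPM in fixed Triton cells, a ratio of -0.41, and at 242, 482 and 763 CPM in live and 342, 542 and 1178 CPM in fixed FRISCR cells. For each of these the groups overlapped within each preparation.

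Under Triton the Spearman correlation of length with the log2 ratio was -0.33 over the 33 genes (-0.29 in each set) and -0.18 over all 7256. The 11 shortest factors had a median of -0.39, the middle 11 of -1.50 and the longest 11 of -0.95. Of the furthest members, EIF3D and EIF4A2 are of middle length and EIF3A is among the longest.

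The 10 genes whose start holds a pyrimidine run did not stand together under Triton. Their median log2 ratio was -0.81, with 4 of 10 over 2-fold lower, and the 15 genes with a window and no run had a median of -1.16, with 8 of 15. Of all genes tested 58.5% were over 2-fold lower, and their median was -1.50. Runs are found both in EIF3D, EIF4A2 and EIF3M, which were among the lowest members, and in EIF3F and EIF3K, which were among the highest.

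The preparations were then compared in live cells, with live FRISCR over live Triton. This comparison shares its cells with those above. All 33 genes were within 2-fold, beside 6.57% of 7447 genes over 2-fold higher with FRISCR and 3.14% over 2-fold lower. The median over the 33 was 0.13 and that of all genes 0.10, with 23 higher and 10 lower, or 19 and 14 under TMM and 18 and 15 under median-of-ratios. The elongation factor median was 0.22, with 5 of 5 higher in both sets (4 of 5 higher under median-of-ratios), beside 33.2% of all genes tested. Against the all-gene median of each set, which was itself above 0, 3 of the 5 were higher in both sets. The eIF3 median was 0.21, the eIF4 median 0.18 and the eIF1, eIF2 and eIF5 median -0.20, with 6 of 8 lower.

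EEF2 had the largest ratio there, at the edge of 2-fold. It was at 497, 846 and 1527 CPM in live FRISCR and 129, 407 and 880 CPM in live Triton cells, and 7 of 15 FRISCR cells exceeded the highest Triton cell. Its ratio was 1.98-fold (interval 1.96 to 2.01), with log2 values of 1.54 and 0.82 in the sets, and it passed 2-fold when any of 9 cells was left out, at most 2.22-fold without live Triton cell 11. EIF4A2 (0.63), EEF1A1 (0.61), EIF4B (0.48) and EIF3H (0.45) followed. These members were picked out after their values were seen.

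The genes with a pyrimidine run at their start had a median log2 ratio of 0.33 in live cells, FRISCR over Triton. The 15 genes with a window and no run had 0.01. EEF2, EEF1A1, EIF4A2 and EIF4B, 4 of the 5 highest members, hold a run, and the start of the other, EIF3H, was not examined. EIF3D (-0.26) and EIF2S3 (-0.23), which hold a run too, were at the opposite end. By a list of established TOP mRNAs, 10 of 10 members were higher with FRISCR, 9 of them in both sets (33.2% of all genes), with 9 of 10 higher under TMM and 8 of 10 under median-of-ratios. Against the all-gene median of each set, 7 of the 10 were higher in both sets. The median of the 10 was 0.29, against 0.01 for the other 23. That list was chosen with earlier results of these data known. It includes the 5 elongation factors already counted above and leaves out EIF3D and EIF2S3. Start windows were used for 6 of its 10 members, and 5 of these hold a run, so its count is not separate from those above. The live Triton cells of set 1 were low in elongation factor counts, and the EEF1A1 ratio was 0.96 in set 1 and 0.39 in set 2.

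In fixed cells the FRISCR over Triton comparison shares its Triton cells with the fixation comparison above, so it is given for its own values. Of the 33 genes, 19 were over 2-fold higher with FRISCR, beside 59.8% of 7272 genes, and 0 over 2-fold lower, beside 10.6%. The median was 1.13 against 1.53 for all genes. By role it was 0.79 for the elongation factors, 1.42 for eIF3, 1.21 for eIF4 and 0.78 for the eIF1, eIF2 and eIF5 genes. Under TMM 6 genes were over 2-fold higher and 5 lower, and under median-of-ratios 4 and 8, as the all-gene median moved to 0.44 and 0.27. The share of all genes past 2-fold was not counted under either scaling.

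In 4 genes every fixed FRISCR cell lay above every fixed Triton cell, beside 4.95% of genes tested: EIF3D (47.0-fold, interval 40.3 to 55.1, and 112-fold without fixed Triton cell 3), EIF4A2 (20.4-fold, 18.5 to 22.5, and 31.2-fold without cell 2), EIF4A1 (4.37-fold, 4.31 to 4.44) and EEF1A1 (2.27-fold, 2.26 to 2.29). The log2 ratio of EIF4A1 ranged from 1.92 to 2.71 as each cell was left out. The EEF1A1 ratio turned below 0 under median-of-ratios, at -0.08. EIF5A (-0.65) was lower with FRISCR in both sets, while EIF3B (-0.68) was at 0.86 in set 1 and -1.48 in set 2. No eIF3 subunit was lower in both sets (0 of 12), and EEF1G (0.18) and EIF3K (0.17) were nearly level. EIF1AX was at 1.79, and at 2.58 without fixed Triton cell 7.

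**Figure D5:**
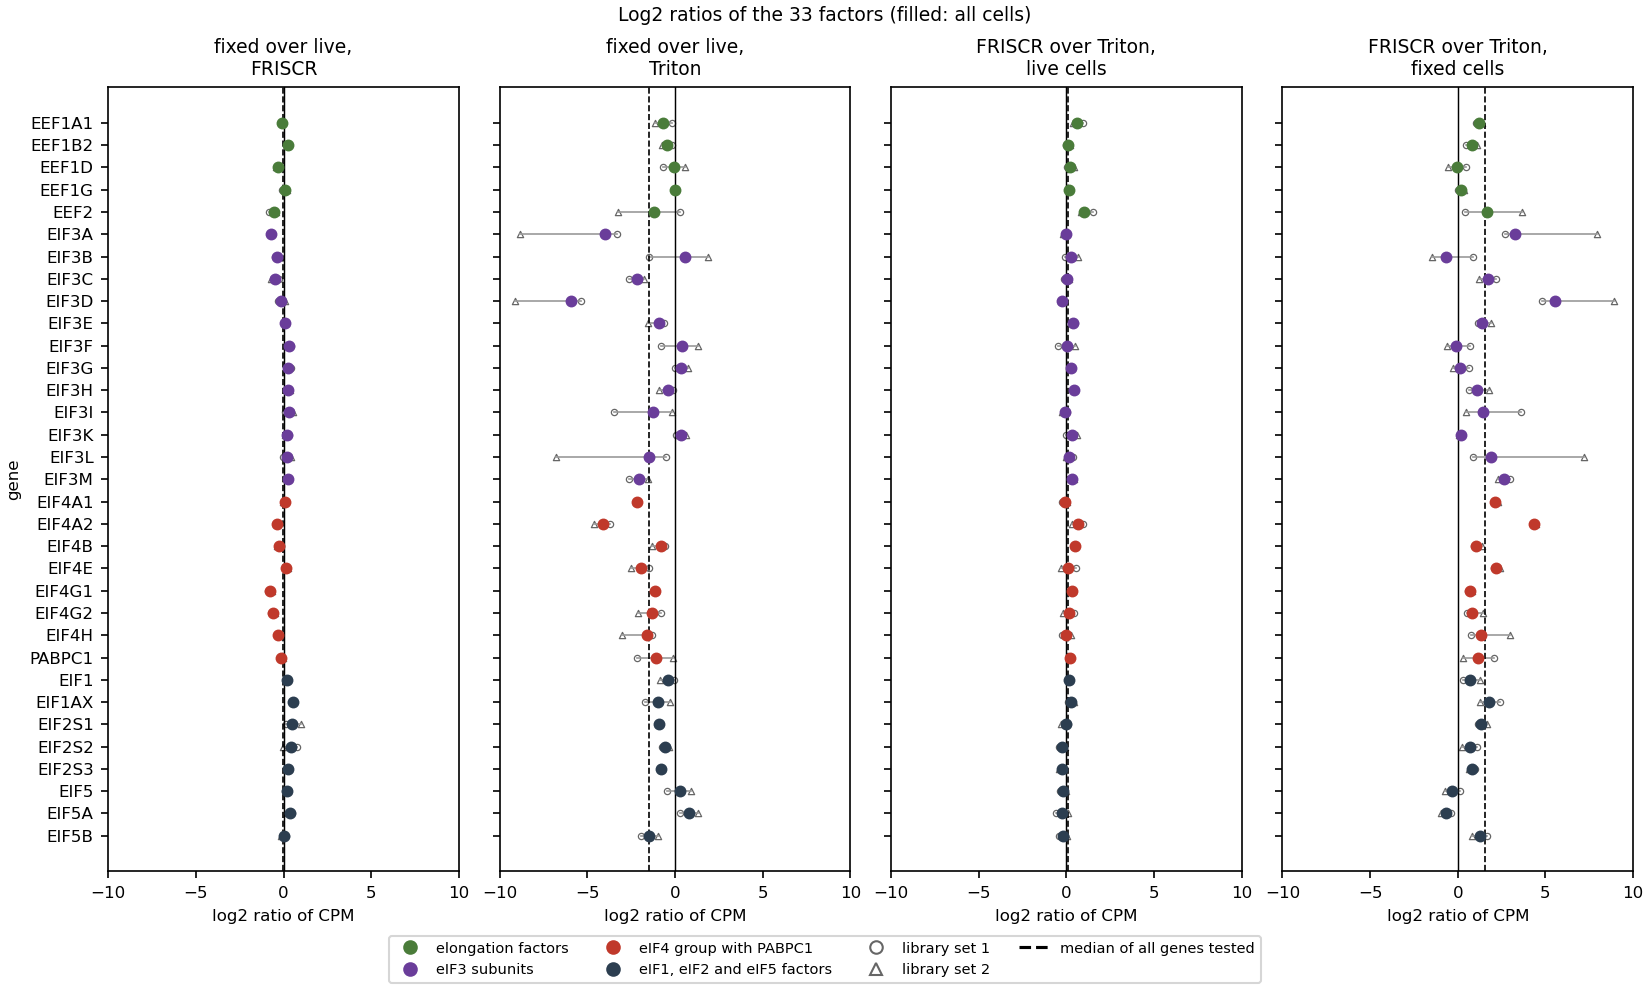
Log2 ratio of summed CPM of each of the 33 genes in the 4 comparisons, with filled points for all cells, open circles and triangles for library sets 1 and 2, and a dashed line at the median of all genes tested. The points cluster within 2-fold in the FRISCR fixation and live-cell comparisons and spread from -5.95 to 0.78 in the Triton fixation comparison.

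Other genes of translation were taken from a list of 36, of which 35 had a row. Under FRISCR, 30 passed 20 CPM and 28 stayed within 2-fold between fixed and live cells. The exceptions were EIF2AK2 (-2.05), for the kinase PKR, and EEF2K (1.25), for the kinase of eEF2, which was 2.78 and -0.28 in the sets. Under Triton, 13 of 29 were over 2-fold lower and 2 over 2-fold higher in fixed cells, with a median of -0.92, beside 58.5%, 12.4% and -1.50 over all genes tested.

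The pathway genes furthest up under Triton were DHX29, EIF4EBP2 and EIF4E2. DHX29, for a helicase that helps the small subunit through structured leaders, was at 125 CPM in fixed and 42.9 in live Triton cells, a log2 ratio of 1.55 with 1.63 and 1.38 in the sets. EIF4EBP2, for an inhibitor of eIF4E, was at 231 and 89.4 CPM (1.37), and EIF4E2, for a cap-binding relative of eIF4E, at 200 and 103 CPM (0.95). At the other end, EIF2B2, for a subunit of the exchange factor of eIF2, was at 0.103 CPM from 3 counts in fixed and 45.0 CPM in live Triton cells, or 437-fold lower with a counting interval of 149 to 2120. The factors of mitochondrial translation held the furthest genes down: GFM1, for a mitochondrial elongation factor, was at 0.103 CPM from 3 counts in fixed and 96.4 CPM in live Triton cells, or 936-fold lower with a counting interval of 320 to 4542. TSFM, for the exchange factor of mitochondrial EF-Tu, had 0 counts in fixed Triton cells and 57.1 CPM in live Triton cells, at least 555-fold lower against a floor of 3 counts over the group.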

How the data were processed

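Smart-seq2 libraries from 45 single H1 cells were analysed from 2 deposited tables. The authors deposited estimated counts per gene, not scaled to depth; 40.3% of the nonzero values were not whole, and all were rounded here. The authors also deposited TPM values, scaled for transcript length, used as deposited for levels. The submitters' processing notes name the build GRCh37 (hg19). The aligner, quantifier and annotation are not stated by the labels or files used, so how reads of pseudogenes or near-identical copies were assigned is unknown.

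The 33 members, the roles, a list of 36 pathway and 6 mitochondrial genes, the marker lists and a list of 10 TOP mRNAs (EEF1A1, EEF1B2, EEF1D, EEF1G, EEF2, EIF3E, EIF3F, EIF3H, EIF4B and PABPC1) were chosen with earlier results of these data known. Each group's cells were pooled by adding their counts, and a pooled count was set against the pooled total. A gene was tested where either group reached 20 CPM, and a change was counted from 2-fold. Ratios have exact 95% binomial intervals, a sum of 0 was set to a floor of 3 counts over the group, and detection was read after thinning to 1000000 counts per cell. Total counts of 3388417 to 6594043 per cell set the precision. Median-of-ratios scaling from DESeq2 1.42.0, TMM scaling from edgeR 4.0.16, mean CPM, mean TPM, other filters, each library set alone and each cell left out were alternatives. Leaving out each cell for every member, role medians and TOP counts by scaling, and the spread within roles without each cell, were chosen after seeing the data. A list's median was taken as moved when it changed by more than the standard deviation between the 2 library sets, pooled over the 5 lists. The ratios were tested on simulated data, read relative to the median gene. The simulated spread from cell to cell was smaller than that of fixed Triton cells, and no low gene was changed. That test therefore does not cover low or uneven genes in fixed Triton cells.

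Values by cell are given, in each role, for the 2 members highest by TPM in live cells and for the highest and lowest by the smaller ratio of the 2 sets under Triton fixation and between preparations in fixed cells. The 3 pathway genes furthest each way are named too, and other members named were picked after their values were seen. No cell was left out, no 2 cells held identical values, and no doublet caller was run. Cell numbers follow accession order only. Python 3.11.15, numpy 2.4.6, pandas 2.3.3, scipy 1.17.1 and R 4.3.3 were used. Start windows came from RefSeq tables of build GRCh38.p14 and were used for their sequence and position in that build. The windows used for the factor genes include none on the chromosome of EEF1D, EIF3E, EIF3H and PABPC1.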

Additional observations from a re-analysis of the deposited data

Results flagged for a closer look

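In fixed Triton cells 3 values stood apart from the other 6 cells of the group: EIF3D in cell 3, at 30.4 CPM against 0.420 to 12.3, EIF4A1 in cell 2, at 1766 CPM against 70.0 to 667, and EIF1AX in cell 7, at 363 CPM against 0.232 to 135. In each, the gap to the nearest cell was over 0.568 of the group's range. Chance gives such a gap in about 1 of 20 sets of normally distributed values. The 19 sets looked at, list shares and levels of named genes, all came from these same 7 cells and are not independent. CPM is uneven there, with a median coefficient of variation of 0.98 over the 33 genes, so that rate need not hold.

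By total counts, fixation moved some members in opposite directions under the 2 preparations, in both library sets each time. EIF3E, EIF1 and EIF1AX were higher in fixed FRISCR cells and lower in fixed Triton cells, and the log2 ratio under Triton minus that under FRISCR was -1.03 for EIF3E, -0.59 for EIF1 and -1.51 for EIF1AX. The same held for the medians of all 33 factors (-1.03), of the eIF3 subunits (-1.29) and of the eIF1, eIF2 and eIF5 genes (-0.99). Under TMM the Triton ratios were above 0 for EIF3E (0.089), EIF1 (0.61) and EIF1AX (0.063) and for the medians of all 33 (0.089) and of eIF1, eIF2 and eIF5 (0.34), so those directions are no longer opposite, and the eIF3 median was -0.074 (0.11 under median-of-ratios). With 1 sample a group these differences were not tested, and they include the fall of the all-gene median under Triton.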

How the results depend on the processing

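Each group is 1 sample, so values moved by a single cell or library set limit every comparison here, above all the 7 fixed Triton cells. No paired analysis was possible because the labels give cells no replicate numbers and the numbers used come from accession order. Depth limits low members: EIF3D rests on 164 counts in fixed Triton cells. Where values moved, the cause was not tested. List medians below are relative to the median of all genes, in the order all 33, elongation, eIF3, eIF4, and eIF1, eIF2 and eIF5.

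Within FRISCR the medians were 0.13, -0.09, 0.23, -0.26 and 0.34. They were 0.061, -0.16, 0.16, -0.33 and 0.27 among genes at 100 CPM or more. In set 1 alone all 33 were at 0.088, eIF3 at 0.097 and the last list at 0.21, and in set 2 eIF3 was at 0.15, eIF4 at -0.30 and the last list at 0.27. Leaving out 1 cell gave 0.079 to 0.17, -0.13 to -0.048, 0.17 to 0.26, -0.30 to -0.21 and 0.29 to 0.38.

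Under Triton fixation they were 0.57, 1.04, 0.41, 0.05 and 0.82, and with no filter 0.19, 0.66, 0.033, -0.32 and 0.45. Leaving out 1 cell gave 0.47 to 0.79, 0.88 to 1.31, 0.23 to 0.72, -0.27 to 0.30 and 0.77 to 1.07, and eIF4 was below 0 without fixed Triton cell 1. Set 1 gave 1.27, 1.92, 0.94, 0.68 and 1.29, and set 2 gave 1.10 for all 33, 0.85 for eIF3 and 1.51 for the last list. For eIF4 set 2 gave -0.11, on the other side of the all-gene median from set 1. Between preparations in live cells, set 1 put eIF3 at -0.0060 and eIF4 at 0.30, and set 2 put elongation at 0.23 and the last list at -0.17 (0.11, 0.08, 0.11 and -0.31 with all cells). In fixed cells FRISCR over Triton gave -0.40, -0.74, -0.10, -0.31 and -0.75, and with no filter -0.071, -0.41, 0.22, 0.015 and -0.42. Set 1 gave -1.14 for all 33, -1.60 for elongation and -1.05 for eIF3, set 2 gave -0.80 for all 33, -0.54 for eIF3 and -1.30 for the last list, and leaving out 1 cell put eIF3 at -0.41 to 0.092 and eIF4 at -0.56 to 0.076, both above 0 only without fixed Triton cell 1. Each cell left out aside, 121 list medians, that of eIF4 in set 2 under Triton fixation among them, moved by less than the spread between library sets.

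The number of factors over 2-fold higher under Triton fixation was 7 by TMM, 8 by median-of-ratios and 3 in set 2, in place of 0. The number lower, 15, became 6 with TMM, 3 with median-of-ratios and 23 with mean TPM. In live cells 1 factor, EEF2, passed 2-fold with FRISCR by mean TPM, 1 did so in set 1, and 0 to 1 as each cell was left out. In fixed cells FRISCR over Triton gave 6 higher and 5 lower by TMM, 4 and 8 by median-of-ratios, and 1 lower in set 2, in place of 19 and 0. No share of all genes past 2-fold was counted under these alternatives.

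Without the TVAS5 row and rows named for rRNA, the shares in fixed Triton cells were 2.05% for all 33, 0.848% for elongation, 0.251% for eIF3, 0.364% for eIF4 and 0.496% for the last list (live Triton: 2.54%, 0.884%, 0.424%, 0.807% and 0.356%). In set 2 live Triton cells, elongation took 1.10% and the last list 0.291%, and in set 1 live FRISCR cells eIF4 took 0.956%. With 5 counts required, 12 of the 33 were found in every fixed Triton cell and 1 of the eIF3 subunits, and without thinning 7 of the eIF4 genes.

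Turned directions were looked for only in the members named by the rule given above, so turns of other members, such as EEF1B2, are not listed. Among those with 1 direction in both sets and a ratio over the spread between them, EIF3E turned within FRISCR by mean TPM (-0.0072). Under Triton fixation, directions turned for EEF1A1 (0.34 by TMM and 0.52 by median-of-ratios), EIF3E (0.089 and 0.27) and EIF4G1 (0.042 by median-of-ratios). In fixed cells, FRISCR over Triton turned for EEF1A1 (-0.076 by median-of-ratios), EIF3K (-0.92 by TMM, -1.09 by median-of-ratios, and from -0.062, without fixed Triton cell 1, to 0.53 as each cell was left out), EIF4G1 (-0.38 and -0.55), EIF1 (-0.37 and -0.54) and EIF5B (-0.0074 by median-of-ratios).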

Other observations

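Mitochondria carry their own translation factors, encoded in the nucleus and made from the same pool of cytoplasmic mRNA. Of 6 such genes, 5 had fixed Triton levels over 2-fold under their live Triton levels, beside 58.5% of genes tested, and their median log2 ratio was -2.60, against -1.50 for all genes. TUFM, for the mitochondrial counterpart of eEF1A, was 3.13-fold lower, and GFM2, for a ribosome recycling factor, was 11.8-fold lower. MTIF3, for an initiation factor, was at 46.8 CPM in fixed and 39.4 CPM in live Triton cells. Within FRISCR the median of the 6 was -0.06, but GFM2 (-1.81) and MTIF2 (-0.92) were lower in fixed cells.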
